A study of Mus musculus with 12 samples.

Results

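The monocyte marker genes examined here were 9 named mouse genes: the surface proteins Ly6c2 and Ly6i, Plac8, the chemokine receptor Ccr2, the proteoglycan Vcan, the calcium-binding proteins S100a8 and S100a9, and the adhesion receptors Adgre1 and Adgre4. All 9 had a row in both count tables, which share 54582 gene symbols (55367 in the table with apoptotic cells and 54957 in the table without). Of these genes, 7 were named as monocyte or macrophage markers, and 2, Ly6i and Adgre4, were added because their counts differed between the genotypes in these same libraries. Values of Ly6i and Adgre4 are therefore given as a description, with no test.

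Monocytes are blood cells that leave the bone marrow, enter tissue and can mature into macrophages. Classical mouse monocytes are recognised by high Ly6C and CCR2, and they lose much of both as they mature, while the macrophage protein F4/80, the product of Adgre1, increases. Macrophages clear dying cells by engulfing them, a process called efferocytosis, which the study examined in relation to the kinesin motor KIF13B.

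The libraries came from bone marrow-derived macrophages (BMDMs) grown from tibial marrow, and the labels' time field gives 6 to 8 weeks for every sample. There were 3 libraries in each of 4 groups. The libraries labelled KO + AC were from Kif13b-/- cells and those labelled WT + AC from wild-type cells, both given apoptotic Jurkat cells (AC; Jurkat is a human T cell leukaemia line) for 90 minutes at 5 apoptotic cells per macrophage. The libraries labelled KO (Kif13b-/-) and WT received no apoptotic cells. The genotype field calls the same KO samples a knock down, and the part of the gene that was changed is not given in the sources used here. For the cultures without apoptotic cells the labels list 12, 13 and 14% serum in KO and 10, 10 and 11% in WT, values that go up by 1 from sample to sample and are in doubt; taken as written, serum and genotype cannot be told apart. The sources used here do not state whether replicate libraries were drawn from different mice or dishes, so p-values measure the spread between libraries, which may be technical.

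Each library held 17000976 to 17285594 counts with apoptotic cells and 18256622 to 18770757 without. Kif13b itself had 1697, 1697 and 1721 counts in KO + AC and 1600, 1561 and 1634 in WT + AC, so it was slightly higher in the libraries labelled KO + AC (log2 fold change 0.13, edgeR adjusted p = 0.0261), which goes against their label. Counts of the gene without apoptotic cells were 281, 345 and 424 in KO and 599, 546 and 535 in WT (log2 -0.59, edgeR adjusted p = 0.0087). Groups are named below by their labels, and every genotype direction rests on those labels. Libraries of 1 group agreed closely with apoptotic cells (chi-square per degree of freedom of 1.4 to 1.93 between their counts) and much less without (4.96 to 35.5). KO library 3 stood nearer to WT library 1 (8.42) than to KO libraries 1 and 2 (22.7 and 35.5), so calls of members without apoptotic cells are also given with libraries left out. For the other genes named, calls without apoptotic cells are given from all libraries only. The 12 macrophage markers examined together made up 18100 to 18400 CPM (counts scaled to a library total of 1000000, within each table) in KO + AC, 15200 to 16200 in WT + AC, 28700 to 37700 in KO and 28700 to 31000 in WT, and none of them was at 0. Most of each sum was 1 gene, Lyz2, named after its values were seen. Lyz2 averaged 12170 CPM in KO + AC, 10320 in WT + AC, 24710 in KO and 21600 in WT. In these bulk samples, fewer cells of a type and less RNA per cell cannot be told apart.

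The promoters of 7 members were matched by symbol in RefSeq (build GRCm38.p6), and 4 are printed. The first pair belongs to S100a8 and S100a9, whose products form a dimer but whose counts lay far apart here. The second pair belongs to Plac8 and Ccr2, which changed in opposite directions in KO without apoptotic cells. Each runs 5′ to 3′ on the gene's own strand, from 250 bases before the annotated start to 50 after it, and capitals mark the motifs searched.
S100a8: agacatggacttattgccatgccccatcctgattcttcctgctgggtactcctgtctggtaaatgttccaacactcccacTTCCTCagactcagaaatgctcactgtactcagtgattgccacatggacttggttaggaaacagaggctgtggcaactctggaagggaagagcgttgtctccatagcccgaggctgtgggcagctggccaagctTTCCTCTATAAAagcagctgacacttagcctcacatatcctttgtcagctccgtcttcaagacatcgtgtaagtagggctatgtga
S100a9: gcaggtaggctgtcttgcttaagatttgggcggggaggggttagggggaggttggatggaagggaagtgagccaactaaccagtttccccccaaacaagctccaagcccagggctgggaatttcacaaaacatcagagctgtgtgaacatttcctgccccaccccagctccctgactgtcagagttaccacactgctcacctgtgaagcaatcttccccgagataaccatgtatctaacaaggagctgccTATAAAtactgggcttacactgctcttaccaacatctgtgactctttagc
Plac8: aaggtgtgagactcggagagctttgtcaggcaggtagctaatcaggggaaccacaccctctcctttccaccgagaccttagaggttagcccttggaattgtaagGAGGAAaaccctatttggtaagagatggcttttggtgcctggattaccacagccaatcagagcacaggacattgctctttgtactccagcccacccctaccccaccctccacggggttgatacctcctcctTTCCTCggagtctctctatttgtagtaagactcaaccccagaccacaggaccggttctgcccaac
Ccr2: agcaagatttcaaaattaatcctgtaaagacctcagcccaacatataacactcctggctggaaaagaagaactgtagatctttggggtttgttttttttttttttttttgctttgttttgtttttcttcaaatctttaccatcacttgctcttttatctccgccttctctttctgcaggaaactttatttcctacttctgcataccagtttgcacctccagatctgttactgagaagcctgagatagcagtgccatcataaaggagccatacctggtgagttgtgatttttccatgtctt
The S100a8 promoter (chr3:90668821-90669120, + strand) and the S100a9 promoter (chr3:90695672-90695971, - strand) lie on the same chromosome. The Plac8 promoter (the first of 2 annotated starts) is at chr5:100572156-100572455 on the - strand, and that of Ccr2 is at chr9:124101933-124102232 on the + strand. Both strands were searched for 3 motifs, of which none overlapped another: GAGGAA, a core bound by the myeloid factor PU.1 and held by 28.3% of 32851 promoters of the same length, TATAAA, the TATA box (13.6%), and the interferon-stimulated response element, with any base at its middle pair of positions (3.44%). S100a8 held the PU.1 core at -170 and -36 from its start, both on the opposite strand, with a TATA box at -30 directly beside the second. Plac8 held the PU.1 core at -146 on the same strand and at -15 on the opposite strand. S100a9 held a TATA box at its annotated start (0), and Ccr2 held none of the 3. In the GENCODE annotation the Ccr2 gene begins at chr9:124101950, so most of its window lies inside the gene there. Among the promoters not printed, those of Ly6c2 and Adgre4 held the PU.1 core, that of Vcan held no motif, and the interferon element was in none of the 7. These matches describe the letters of the windows only.

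In the libraries, these genes behaved neither as 1 abundant set nor as 1 group that moved together. Adgre1 was by far the most abundant member in all 4 groups, S100a8 came next, and the other 7 lay far lower per kilobase. With apoptotic cells, Adgre1 rose in KO + AC and was the only member called between the genotypes, although S100a8 was also called with DESeq2 size factors or an offset for gene length. Without apoptotic cells, Plac8 rose in KO and Ccr2 and Vcan fell, the last pair only in some settings. Between the libraries with and without apoptotic cells the differences were larger: Vcan was higher with apoptotic cells, and Plac8, Ccr2 and S100a8 lower, in both genotypes.

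Levels between genes are compared here as CPM per kilobase of exon, with exon lengths from the GENCODE annotation of GRCm38. CPM were scaled within each table, so these levels compare genes within a group and KO with WT, and not libraries with and without apoptotic cells. Adgre1 averaged 219 ± 4.71 in KO + AC, 190 ± 1.60 in WT + AC, 138 ± 12.7 in KO and 161 ± 2.47 in WT (SD, n = 3 each). S100a8 followed with 20.7 ± 1.57 in KO + AC, 17.4 ± 0.960 in WT + AC, 25.8 ± 4.31 in KO and 24.0 ± 0.861 in WT. The ranges of these genes lay clear of each other and of all other members in every group. With apoptotic cells, Vcan (2.68 ± 0.0722 in KO + AC and 2.88 ± 0.198 in WT + AC) was next. In KO + AC its range overlapped that of Ly6i (2.45 ± 0.654), and the ranges of Adgre4 (1.30 ± 0.212) and Ly6c2 (1.08 ± 0.156) also overlapped. Without apoptotic cells Plac8 was next, at 2.31 ± 0.175 in KO and 0.999 ± 0.237 in WT. In KO its range lay above all that followed it (Ccr2 at 0.475 ± 0.151, Vcan at 0.392 ± 0.0839), whereas in WT it overlapped that of Ccr2 (0.739 ± 0.115). Ly6c2 was lowest in WT (0.115 ± 0.0353). In KO the lowest mean was that of Adgre4 (0.120 ± 0.0575), whose range overlapped those of Ly6c2 (0.148 ± 0.135) and Ly6i (0.212 ± 0.0812), and Ccr2 had the lowest mean in both groups with apoptotic cells, with ranges that overlapped those of S100a9.

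**Figure D1:**
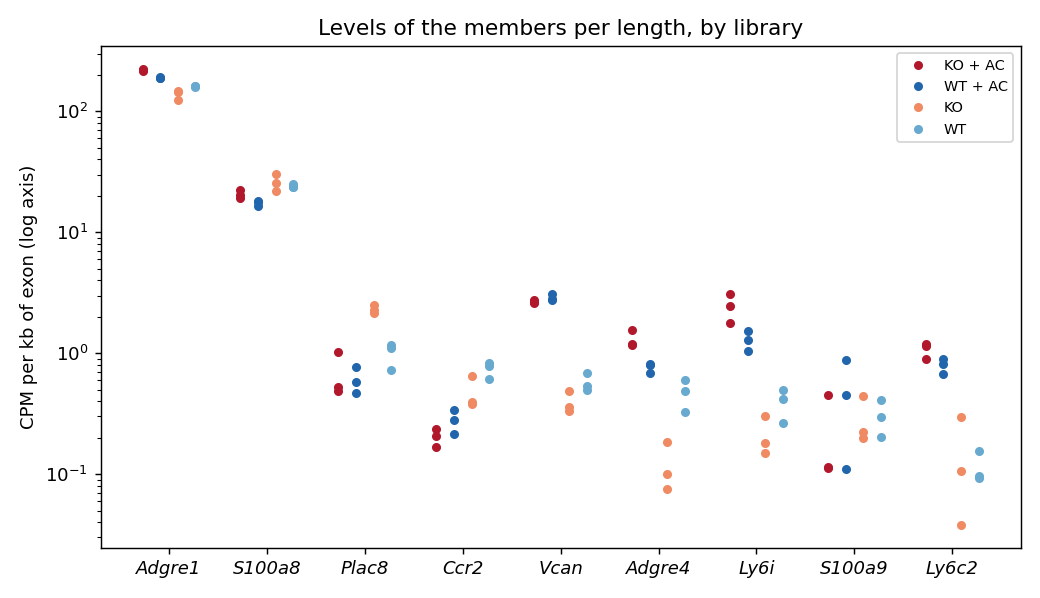
Level of each member in each library, as CPM scaled within each table, per kilobase of exon on a log axis, with 3 points per group. Adgre1 lies between 124 and 225 and S100a8 between 16.4 and 30.4, and every other member lies below both in every library.

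**Figure D2:**
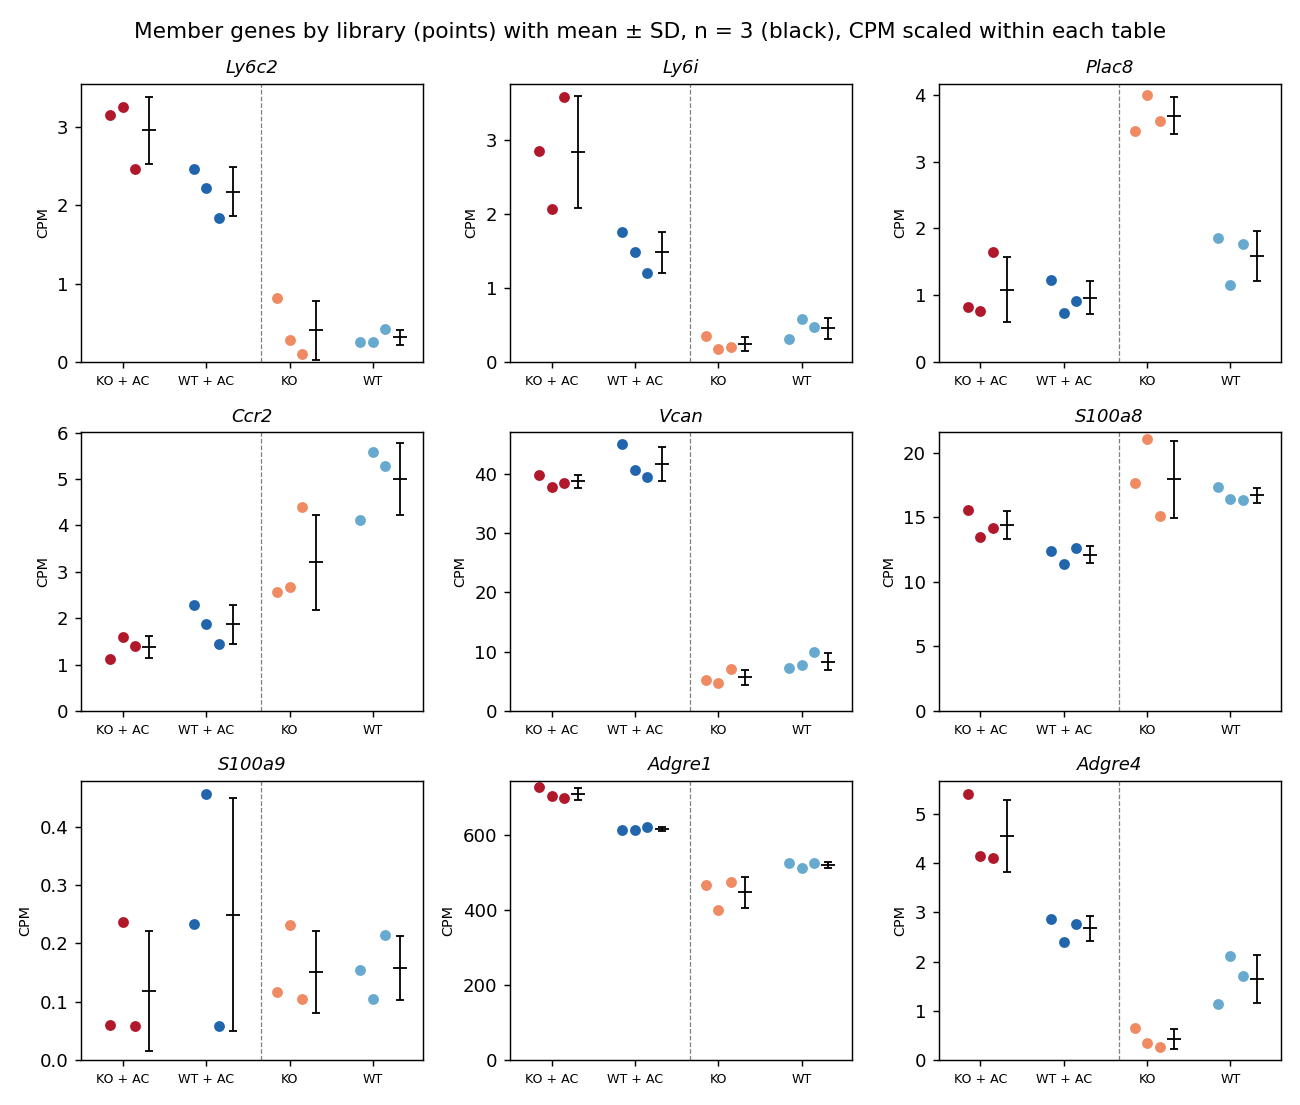
CPM of each member in each library (points) with the mean and SD of each group (black, n = 3), each panel on its own axis from 0. The dashed line parts the 2 tables, which were scaled separately, so KO is read against WT on each side of it: Plac8 lies at 3.68 in KO and 1.59 in WT, and Adgre1 at 710.3 in KO + AC and 616 in WT + AC.

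The genotype effect was tested gene by gene in each table with edgeR's quasi-likelihood test, and a gene was called where its Benjamini-Hochberg adjusted p over all genes tested was under 0.05. With apoptotic cells, 8 members passed the filter on low counts, 6 of them open to a test, and 1 was called (Adgre1, higher), against 11.3% of all 16467 genes (6.58% higher, 4.75% lower). Without apoptotic cells, 6 members passed, 5 were open to a test, and 3 were called, 1 higher and 2 lower, against 16.2% of 12640 genes (7.94% higher, 8.24% lower). The members that did not pass were S100a9 in both tables, and Ly6c2 and Ly6i without apoptotic cells. The direction of the calls over all genes depended on the scaling: with library totals in place of TMM (edgeR's trimmed-mean scaling), a setting chosen after seeing the data, 648 genes were higher and 1383 lower with apoptotic cells (1083 and 783 with TMM), and 356 higher and 1268 lower without (1004 and 1041 with TMM). The members called were the same number under that scaling, 1 and 3. The median log2 fold change over all genes was -0.02 with and 0.02 without apoptotic cells.

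**Figure D3:**
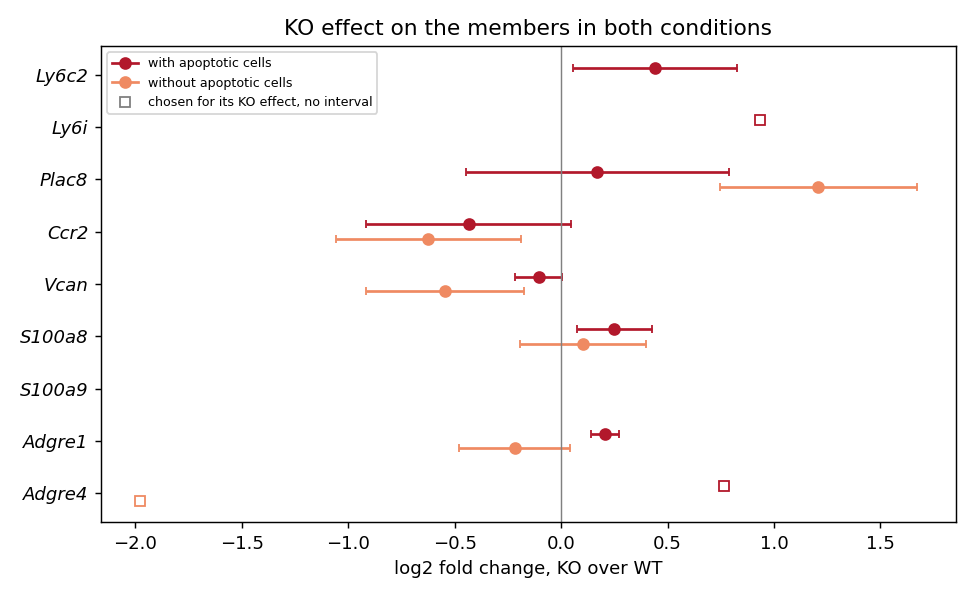
Log2 fold change of the libraries labelled KO over WT for each member, with apoptotic cells (dark red) and without (orange), with 95% confidence intervals from edgeR (n = 3 against 3). Open squares mark Ly6i and Adgre4, which were chosen for this difference and carry no interval, and genes without a symbol did not pass the filter on low counts. Plac8 lies at 1.21 without apoptotic cells and Adgre1 at 0.21 with them.

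CCR2 is the receptor that draws classical monocytes out of the marrow and into tissue, towards CCL2 and CCL7. Ccr2 (chr9:124101950-124113557, + strand, GRCm38) had 19, 27 and 24 counts in KO + AC and 39, 33 and 25 in WT + AC, or 1.38 ± 0.236 and 1.87 ± 0.422 CPM (SD, n = 3). These groups overlapped narrowly, and the difference was not called (log2 -0.43, SE 0.239, edgeR adjusted p = 0.274). Its counts without apoptotic cells were 44, 46 and 84 in KO and 80, 106 and 99 in WT, or 3.21 ± 1.02 and 4.99 ± 0.778 CPM. KO library 3 lay within the WT range, and the other KO libraries lay below every WT library. Ccr2 fell in KO (log2 -0.63, SE 0.211, edgeR adjusted p = 0.0452), but the call was lost with DESeq2 (adjusted p = 0.0565), with an offset for gene length (edgeR adjusted p = 0.0791), and without KO 1, KO 2, WT 2 or WT 3 in turn (edgeR adjusted p = 0.135 to 0.185). The log2 value was -0.97 without KO library 3 (edgeR adjusted p = 0.00273) and -0.18 without KO libraries 1 and 2 (edgeR adjusted p = 0.799). That last setting, here and for the genes below, leaves 1 KO library, assumed to vary like the WT libraries, so a lost call there is partly set by the design.

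The other genes of this axis did not all move as Ccr2 did. Of 9 ligands and other CC receptors, 7 passed the filter in each table. With apoptotic cells 3 ligands fell and 1 receptor rose (median log2 -0.01). Ccl2 averaged 116 ± 1.65 CPM in KO + AC and 172 ± 4.19 in WT + AC (log2 -0.56, edgeR adjusted p = 1.36e-16), and Ccl7 averaged 22.9 ± 0.295 in KO + AC and 33.2 ± 1.66 in WT + AC (log2 -0.54, edgeR adjusted p = 4.6e-09). The remaining ligand was Ccl8 (log2 -1.13) and the receptor was Ccrl2 (log2 0.18, edgeR adjusted p = 0.00013), both named after their values were seen. Ccl8 had 6, 19 and 10 counts in KO + AC and 23, 26 and 30 in WT + AC. It passed the filter through the WT + AC libraries, where it is high, and no p is given for it. Without apoptotic cells 2 receptors fell and none rose (median log2 0.09). With library totals and with the length offset 3 genes of the list fell and the median was negative (-0.03 and -0.17). Ccr3, the eotaxin receptor, averaged 0.498 ± 0.157 CPM in KO and 1.57 ± 0.210 in WT (log2 -1.63). It had 7, 7 and 13 counts in KO and 32, 33 and 25 in WT. Ccr3 is counted among the receptors that fell, but it passed the filter through the WT libraries, where it is high. No p is given for it. Of 50-base windows of the Ccr2 transcript, 2.27% were also found in transcripts of other genes, and of 150-base windows 0.05%.

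Ly6C is a small lipid-anchored surface protein, and high Ly6C defines classical monocytes in flow cytometry. Ly6c2 (chr15:75108158-75111970, - strand) had 53, 55 and 42 counts in KO + AC and 42, 39 and 32 in WT + AC, or 2.96 ± 0.428 and 2.18 ± 0.311 CPM. Every KO + AC library lay above every WT + AC library in CPM, by a small margin. Groups that did not overlap, in either direction, were found for 26.4% of all genes tested. The difference was not called (log2 0.44, SE 0.192, 95% interval 0.06 to 0.83, edgeR adjusted p = 0.141). In libraries without apoptotic cells only 14, 5 and 2 counts were found in KO and 5, 5 and 8 in WT, too few to pass the filter. In a fit with no filter the log2 value was 0.29 (SE 0.525, edgeR adjusted p = 0.791), with groups that overlapped. The nearly identical Ly6c1 had 1, 0 and 1 counts in KO and 0 in all other libraries. Since 32.99% of 50-base and 5.79% of 150-base windows of the Ly6c2 transcript also occur in Ly6c1 or in further family members, how the authors' counting split shared reads bears on this gene.

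Ly6i, a family member encoded nearby (chr15:74979534-74983430, - strand), was chosen for its difference with apoptotic cells. Counts of Ly6i were 48, 35 and 61 in KO + AC and 30, 26 and 21 in WT + AC, or 2.84 ± 0.756 and 1.48 ± 0.273 CPM (log2 0.93). Its counts without apoptotic cells were 6, 3 and 4 in KO and 6, 11 and 9 in WT, or 0.245 ± 0.0939 and 0.456 ± 0.137 CPM. The KO + AC libraries were all above WT + AC, whereas KO and WT overlapped at a few counts each. Of the 15 other Ly6 genes examined, 3 passed the filter in each table and none was called in either direction (median log2 0.02 with and 0.10 without apoptotic cells). Ly6e, the abundant one, averaged 328 ± 4.98 CPM in KO + AC, 324 ± 5.37 in WT + AC, 371 ± 75.0 in KO and 423 ± 23.4 in WT. Ly6a (Sca-1) averaged 1.36 ± 0.162 CPM in KO + AC and 0.885 ± 0.025 in WT + AC (log2 0.62, edgeR adjusted p = 0.155).

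PLAC8 is a small cysteine-rich protein found in myeloid cells and used as a marker of classical monocytes. Plac8 (chr5:100553725-100572245, - strand) had 59, 69 and 69 counts in KO and 36, 22 and 33 in WT, or 3.68 ± 0.279 and 1.59 ± 0.377 CPM. All 3 KO libraries lay above all 3 WT libraries, KO library 3 included. Plac8 rose in KO without apoptotic cells (log2 1.21, SE 0.224, 95% interval 0.75 to 1.67, edgeR adjusted p = 0.002). The call held in every fit that left out 1 library (log2 1.03 to 1.33, edgeR adjusted p = 0.00192 to 0.0158) and with the length offset (log2 1.01, edgeR adjusted p = 0.0103). With KO library 3 as the only KO library the value was 1.18, close to that of all libraries (edgeR adjusted p = 0.081 with that 1 library, and 6.12e-05 to 0.0158 in the other alternatives, DESeq2 included). Its counts with apoptotic cells were 14, 13 and 28 in KO + AC and 21, 13 and 16 in WT + AC, or 1.08 ± 0.488 and 0.964 ± 0.247 CPM. These groups overlapped, and the difference was not called (log2 0.17, SE 0.308, 95% interval -0.45 to 0.79, edgeR adjusted p = 0.807). It took the other sign, -0.26, without KO + AC library 3. The difference between the genotype effects with and without apoptotic cells was -1.01 (SE 0.391, edgeR adjusted p = 0.0876) and was called only without KO + AC library 3 (-1.45, edgeR adjusted p = 0.0234).

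Versican, the product of Vcan, is a large matrix proteoglycan that classical monocytes secrete and that fibroblasts also make. Vcan (chr13:89655312-89742509, - strand) had 670, 638 and 655 counts in KO + AC and 767, 712 and 685 in WT + AC, or 38.7 ± 1.05 and 41.7 ± 2.87 CPM. The groups overlapped in CPM, and the difference was small and not called (log2 -0.11, SE 0.0543, edgeR adjusted p = 0.23). In libraries without apoptotic cells its counts were 88, 83 and 135 in KO and 141, 147 and 186 in WT, or 5.67 ± 1.21 and 8.31 ± 1.44 CPM. The groups did not overlap, as for 33.6% of all genes tested, although KO library 3 lay just under WT library 1. Vcan fell in KO (log2 -0.54, SE 0.179, edgeR adjusted p = 0.0412), and the call was lost with the length offset (log2 -0.28, edgeR adjusted p = 0.216), without KO 1, KO 2, WT 2 or WT 3 in turn (edgeR adjusted p = 0.0626 to 0.238). With KO library 3 as the only KO library the value was -0.23 (edgeR adjusted p = 0.707). Without KO library 3 it was -0.78 (edgeR adjusted p = 0.00448).

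Vcan is the longest member, with 14462 exonic bases, and fold changes without apoptotic cells went with gene length. The median log2 value was 0.28 in the shortest 8th of the genes and -0.23 in the longest (r = -0.348 across 12530 genes, which are not independent), while with apoptotic cells r was 0.039. Fibroblast markers also moved with genotype. Without apoptotic cells 4 of 7 tested rose in KO (2 with scaling to library totals) and none fell, with a summed level of 663 to 852 CPM in KO and 484 to 597 in WT. With apoptotic cells 5 of 6 tested fell and none rose, with 284 to 305 CPM in KO + AC and 425 to 469 in WT + AC. Col3a1, a fibrillar collagen, had log2 values of -0.60 with (edgeR adjusted p = 2.9e-09) and 1.00 without apoptotic cells (edgeR adjusted p = 0.00013). No fibroblast marker was at 0, and the part of these cells and of gene length in the Vcan counts was not tested. Of 13 versican partners and proteases, 8 passed with apoptotic cells, of which 1 rose and 1 fell, and 6 passed without, of which 1 rose. Cd44, a hyaluronan receptor, averaged 1553 ± 41.8 CPM in KO + AC and 1433 ± 43.2 in WT + AC (log2 0.12, edgeR adjusted p = 0.014), a call lost with scaling to library totals. Adamts4, a protease that cuts versican, averaged 12.1 ± 0.665 CPM in KO + AC and 15.2 ± 0.430 in WT + AC (log2 -0.33, edgeR adjusted p = 0.006). Adamts5, a related protease, was the 1 that rose without apoptotic cells and averaged 1.25 ± 0.221 CPM in KO and 0.542 ± 0.06 in WT. It had 17, 23 and 27 counts in KO and 11, 9 and 11 in WT. It passed the filter through the KO libraries, where it is high, and no p is given for it.

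**Figure D4:**
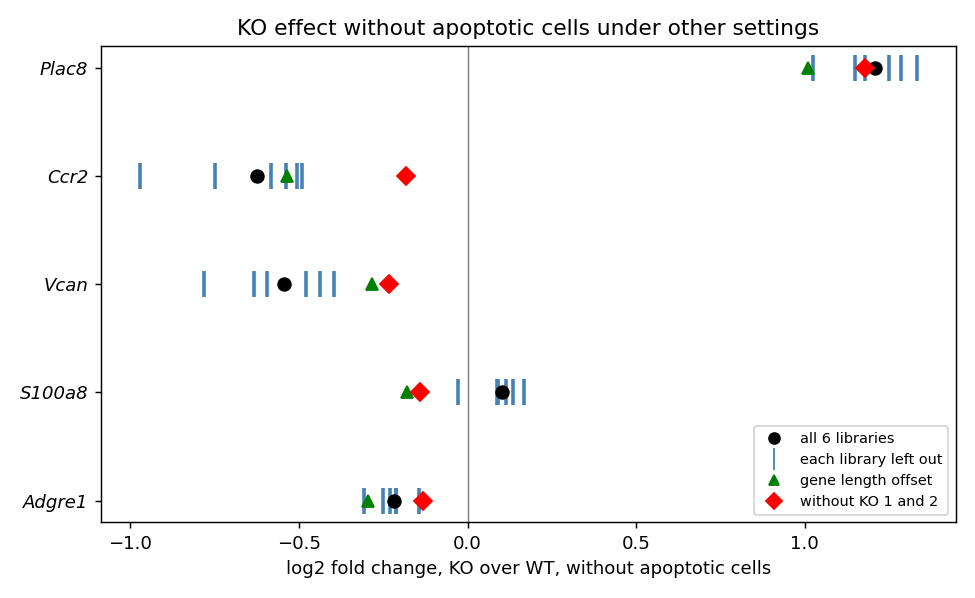
Log2 fold change of KO over WT without apoptotic cells for the 5 members tested, with all 6 libraries (black), with each library left out in turn (blue bars), with an offset for gene length (green) and without KO libraries 1 and 2, which leaves 1 KO library (red). Plac8 lies between 1.01 and 1.33 in every setting shown, while Ccr2 and Vcan reach -0.18 and -0.23 and S100a8 lies on both sides of 0.

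S100A8 and S100A9 are calcium-binding proteins that pair as calprotectin, which neutrophils and classical monocytes hold in large amounts. S100a8 (chr3:90668978-90670035, + strand) had 262, 227 and 241 counts in KO + AC and 211, 199 and 219 in WT + AC, or 14.4 ± 1.09 and 12.1 ± 0.666 CPM. Every KO + AC library lay above every WT + AC library, but the difference missed the threshold (log2 0.25, SE 0.0874, edgeR adjusted p = 0.0548). It passed with DESeq2 size factors in edgeR (edgeR adjusted p = 0.0404) and with the length offset (log2 0.31, edgeR adjusted p = 0.011). Over all alternatives the adjusted p ran from 0.011 to 0.444, the last in the joint fit of both tables. Its counts without apoptotic cells were 301, 364 and 289 in KO and 338, 311 and 305 in WT, or 17.9 ± 2.99 and 16.7 ± 0.597 CPM. The groups overlapped, and the log2 value of 0.10 (SE 0.144, 95% interval -0.19 to 0.40, edgeR adjusted p = 0.642) was -0.03 without KO library 2 and -0.18 with the length offset.

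S100a9, on the same chromosome (chr3:90692632-90695721, - strand), was close to absent. It had 1, 4 and 1 counts in KO + AC, 4, 8 and 1 in WT + AC, 2, 4 and 2 in KO and 3, 2 and 4 in WT. All groups overlapped, and the gene passed the filter in neither table. Of the counts of both genes together, S100a9 took 0.815% in KO + AC (95% exact Clopper-Pearson interval 0.300 to 1.77%), 2.02% in WT + AC (1.08 to 3.44%), 0.832% in KO (0.360 to 1.63%) and 0.935% in WT (0.428 to 1.77%), with intervals that cover counting error only. Per kilobase of exon, S100a8 was 91.5 times S100a9 in KO + AC, 36.4 times in WT + AC, 89.7 times in KO and 79.7 times in WT. No 50-base window of either transcript was found in another gene.

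Neutrophil markers were looked at beside this pair. Of 12, 6 passed with apoptotic cells, of which 1 rose and 1 fell in KO + AC, and 7 passed without, of which 1 rose in KO. The gene counted as rising in KO was Ltf, with 30, 26 and 35 counts in KO and 10, 8 and 8 in WT. Ltf passed the filter through the KO libraries, where it is high, and no p is given for it. Their summed level was 188 to 191 CPM in KO + AC, 167 to 174 in WT + AC, 84.0 to 101 in KO and 88.2 to 99.4 in WT. Most of each sum came from Csf3r, Mmp9 and Mmp8, the last named after its values were seen. Csf3r, the G-CSF receptor, which macrophages can also express, averaged 93.2 ± 1.94 CPM in KO + AC and 67.4 ± 2.58 in WT + AC (log2 0.47, edgeR adjusted p = 5.53e-12). Ly6g, the defining surface marker of mouse neutrophils, was at 0 in all KO and WT libraries and had at most 2 counts in a library with apoptotic cells, and Stfa2 was at 0 in WT + AC, KO and WT. The part of neutrophils in the S100a8 counts was not tested. Of the other S100 genes and the receptors of S100A8/A9, 9 passed with apoptotic cells, of which none rose and 1 fell, and 7 passed without, of which 3 rose and 2 fell. Without apoptotic cells only 2 rose with library totals and with the length offset. The median log2 value was 0.41 with TMM, 0.29 with library totals and 0.17 with the length offset. S100a1 averaged 603 ± 173 CPM in KO and 329 ± 15.4 in WT (log2 0.87, edgeR adjusted p = 0.0017), and S100a6 averaged 734 ± 214 in KO and 443 ± 13.0 in WT (log2 0.73, edgeR adjusted p = 0.00708). KO libraries 1, 2 and 3 held 596, 780 and 434 CPM of S100a1, and 773, 926 and 504 of S100a6. The receptors Tlr4 (log2 -0.43, edgeR adjusted p = 0.0331) and Cd36 (log2 -0.49, edgeR adjusted p = 0.0265) fell in KO, and S100a16 rose (log2 0.60, edgeR adjusted p = 0.0181), all 3 named after their values were seen. With apoptotic cells S100a11 averaged 309 ± 6.46 CPM in KO + AC and 338 ± 19.1 in WT + AC (log2 -0.13, edgeR adjusted p = 0.0116). There, with the length offset, none of this list fell and 1 rose, and with library totals 2 fell and none rose.

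F4/80, encoded by Adgre1 (chr17:57358691-57483527, + strand), is an adhesion-type receptor and the classic surface marker of mouse macrophages, present at lower levels on monocytes. Adgre1 had 12241, 11899 and 11896 counts in KO + AC and 10467, 10750 and 10798 in WT + AC, or 710.3 ± 15.2 and 616 ± 5.17 CPM. The groups were clearly apart, and Adgre1 rose in KO + AC (log2 0.21, SE 0.0324, 95% interval 0.14 to 0.27, edgeR adjusted p = 5.64e-06). The call was kept without any 1 library (log2 0.19 to 0.22) and was lost in the joint fit of both tables, whose estimate of the spread includes the other table (log2 0.23, edgeR adjusted p = 0.274). In libraries without apoptotic cells its counts were 7988, 6915 and 9077 in KO and 10230, 9717 and 9820 in WT, or 447 ± 41.0 and 521 ± 8.00 CPM. All KO libraries lay below all WT libraries, but the difference was not called (log2 -0.22, SE 0.126, edgeR adjusted p = 0.227) except without KO library 3 (log2 -0.31, edgeR adjusted p = 0.0311). The difference between the genotype effects was itself tested, and 1 of 6 members tested was called, Adgre1 (log2 0.45, SE 0.117, edgeR adjusted p = 0.012), against 12.7% of 16810 genes (7.55% higher, 5.13% lower). The 6 include Ly6c2, which entered this joint fit only through the libraries with apoptotic cells and was not called. The Adgre1 call was lost without KO library 2 (0.33, edgeR adjusted p = 0.0706), and its adjusted p ran from 0.000304 to 0.0706 over the alternatives.

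Adgre4, a related receptor (EMR4, also called FIRE) known from mouse myeloid cells, lies on the same chromosome (chr17:55749984-55853662, + strand) and was chosen for its differences. It had 91, 70 and 70 counts in KO + AC and 49, 42 and 48 in WT + AC, or 4.56 ± 0.740 and 2.68 ± 0.249 CPM (log2 0.77). Its counts without apoptotic cells were 11, 6 and 5 in KO and 22, 40 and 32 in WT, or 0.417 ± 0.201 and 1.65 ± 0.490 CPM (log2 -1.98). Every KO + AC library was above every WT + AC library, and every KO library below every WT library, and the gene passed the filter without apoptotic cells through the WT libraries alone. The log2 value was -2.62 without KO libraries 1 and 2. Of 11 other adhesion receptors, 9 passed with apoptotic cells, of which 2 rose, and 7 without, of which none was called. Adgre5 (CD97) averaged 182 ± 2.36 CPM in KO + AC and 162 ± 6.02 in WT + AC (log2 0.17, edgeR adjusted p = 0.000697), and Adgrl2, a latrophilin, averaged 43.6 ± 2.35 in KO + AC and 37.4 ± 2.15 in WT + AC (log2 0.22, edgeR adjusted p = 0.00373).

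Lists of genes from the same cell types show how far the members stand for them. The shares called over all genes were 6.58% higher and 4.75% lower with apoptotic cells, and 7.94% higher and 8.24% lower without. Of 12 further classical monocyte genes, 12 passed with apoptotic cells, of which 5 rose and 2 fell (median log2 0.12), and 11 passed without, of which 1 rose and 2 fell (median log2 -0.24; 3 fell with DESeq2 size factors, 4 with library totals and 5 with the length offset). F13a1, the coagulation factor XIII subunit made by monocytes, averaged 21.4 ± 2.13 CPM in KO + AC and 15.4 ± 1.27 in WT + AC (log2 0.48, edgeR adjusted p = 1.49e-05). It averaged 7.59 ± 0.403 CPM in KO and 21.9 ± 1.86 in WT without apoptotic cells (log2 -1.52, edgeR adjusted p = 6.19e-07). Its genotype effect thus changed sign between the tables, and the test of that difference passed (log2 2.03, edgeR adjusted p = 2.81e-09). Gda, a guanine deaminase, did likewise, at 0.15 with (edgeR adjusted p = 0.0212) and -0.61 without apoptotic cells (edgeR adjusted p = 0.00486; difference 0.78, edgeR adjusted p = 0.000326). Haptoglobin, Hp, averaged 47.1 ± 4.02 CPM in KO + AC and 23.5 ± 1.14 in WT + AC (log2 1.01, edgeR adjusted p = 1.07e-17), with -0.35 without apoptotic cells (edgeR adjusted p = 0.104). Chil3, a chitinase-like lectin, averaged 33.9 ± 0.586 CPM in KO + AC and 52.1 ± 1.46 in WT + AC (log2 -0.62, edgeR adjusted p = 3.29e-13), with -0.41 without apoptotic cells (edgeR adjusted p = 0.0501). These 12 genes summed to 3130 to 3420 CPM in KO + AC, 3360 to 3510 in WT + AC, 1900 to 2150 in KO and 2100 to 2200 in WT. Most of each sum with apoptotic cells was 1 gene, Fn1 (fibronectin), which averaged 2617 CPM in KO + AC and 2833 in WT + AC and is named after its values were seen.

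Nonclassical monocyte genes, which mark the patrolling Ly6C-low cells, had 3 of 10 tested higher with apoptotic cells and none lower, and none of 9 called without. Itgal, the LFA-1 alpha chain, averaged 296 ± 17.5 CPM in KO + AC and 252 ± 11.5 in WT + AC (log2 0.24, edgeR adjusted p = 1.79e-05), and Gngt2, a G protein subunit, had a log2 value of 0.32 (edgeR adjusted p = 8.7e-07). The remaining gene was Nr4a1, the nuclear receptor that nonclassical monocytes need (log2 0.20, edgeR adjusted p = 0.0251), named after its values were seen. Among monocyte transcription factors 1 of 11 rose with apoptotic cells and 2 of 10 fell without. Zeb2, a zinc finger repressor needed for monocyte identity, was the riser (log2 0.15, edgeR adjusted p = 0.00131) and was also among those that fell in KO without apoptotic cells (log2 -0.53, edgeR adjusted p = 0.0139), and the difference between these effects was 0.70 (edgeR adjusted p = 0.00204). Runx1 was the other that fell (log2 -0.47, edgeR adjusted p = 0.0325), and with the length offset none of these factors fell and 1 rose. Macrophage markers had 7 of 11 higher and none lower with apoptotic cells (6 higher and 1 lower with scaling to library totals), and none of 12 higher and 3 lower without. Cd163 is counted among these 3, with 4, 4 and 7 counts in KO and 15, 18 and 14 in WT. Cd163 passed the filter through the WT libraries, where it is high, and no p is given for it. Cd14, the lipopolysaccharide co-receptor, averaged 1021 ± 37.0 CPM in KO + AC and 816 ± 17.8 in WT + AC (log2 0.32, edgeR adjusted p = 2.51e-10), and C1qa, a complement C1q chain, averaged 184 ± 9.90 in KO + AC and 149.7 ± 0.964 in WT + AC (log2 0.30, edgeR adjusted p = 3.68e-08). Mrc1, the mannose receptor, averaged 142 ± 21.7 CPM in KO and 216 ± 21.2 in WT (log2 -0.61, edgeR adjusted p = 0.00625). Progenitor markers had none of 2 called with and none of 1 called without apoptotic cells, and dendritic cell markers had 1 of 4 lower with (Itgax, log2 -0.32, edgeR adjusted p = 5.2e-10) and none of 2 without.

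**Figure D5:**
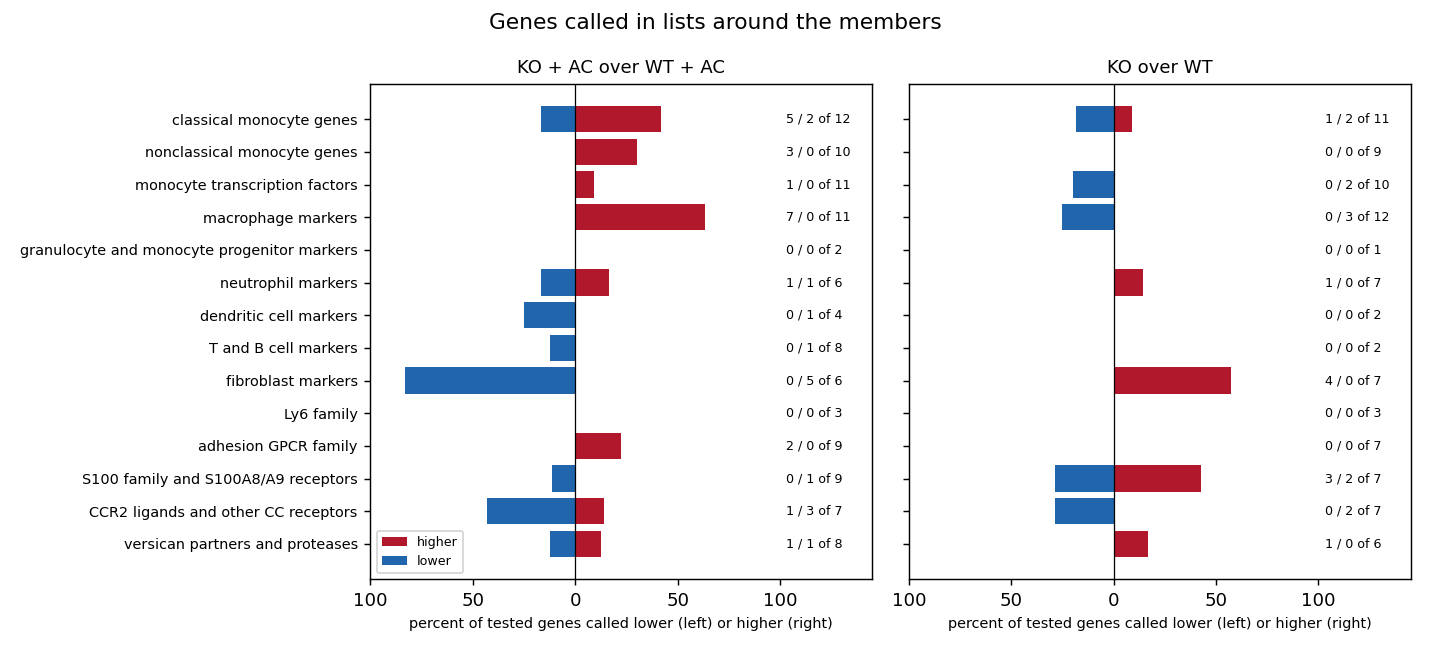
Percent of the tested genes in each of 14 lists that were called lower (blue, left) or higher (red, right) in KO + AC over WT + AC and in KO over WT, with the counts higher / lower of tested at the right of each panel. Macrophage markers have 7 of 11 higher with apoptotic cells, and fibroblast markers have 5 of 6 lower with them and 4 of 7 higher without. With scaling to library totals these counts are 6 of 11, 5 of 6 and 2 of 7. Over all genes tested, 6.58% were higher and 4.75% lower with apoptotic cells, and 7.94% higher and 8.24% lower without.

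Libraries with apoptotic cells were compared with those without in a joint fit of all 12, where condition and table are the same split and cannot be told apart. Ly6c2 entered this fit only through the libraries with apoptotic cells, where it is high, so it is left out of the counts and given as values. In KO, the other 5 members tested were all called, 2 higher and 3 lower, against 86.3% of all 16810 genes (49.6% higher, 36.7% lower). In WT, these 5 were all called, 1 higher and 4 lower, against 85% of genes (48.3% higher, 36.7% lower), so these counts lie near the background. With scaling to library totals, 9942 genes were higher and 4518 lower in KO (8341 and 6162 with TMM), and 9741 higher and 4370 lower in WT (8125 and 6161 with TMM). The number of symbols with at least 1 count was 31787 to 32801 with apoptotic cells and 18335 to 18540 without, and the shortest 8th of the genes had median log2 values of 4.31 in KO and 4.51 in WT, against 0.98 and 0.74 in the longest 8th. The median over all genes was 0.32 in KO and 0.25 in WT, 0.41 and 0.36 with DESeq2 size factors, 0.76 and 0.66 with library totals, and -0.02 and -0.04 with the length offset. Values relative to this median are therefore also given, and the CPM below were scaled jointly over both tables. T and B cell markers summed to 32.8 to 37.5 jointly scaled CPM in KO + AC and 38.4 to 42.3 in WT + AC. The sums were 13.9 to 18.8 in KO and 17.6 to 27.2 in WT, where Cd3d was at 0. Lck, a T cell kinase, had 375 to 468 counts in KO + AC and 471 to 569 in WT + AC, against 12 to 21 in KO and 10 to 16 in WT. Cd28 went the other way, with 66 to 92 counts in KO + AC and 94 to 105 in WT + AC, against 167 to 276 in KO and 256 to 398 in WT. Of the 8 markers tested in this joint fit, Cd28 alone was called lower, in both genotypes. The sums were mostly Lck with apoptotic cells and mostly Cd28 without them. Of 8 T and B cell markers tested between the genotypes with apoptotic cells 1 fell and none rose, and of 2 tested without none was called. The part of Jurkat RNA and of the library differences in the values that follow was not tested.

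Vcan was higher with apoptotic cells in both genotypes. It averaged 34.2 ± 0.974 jointly scaled CPM in KO + AC and 6.59 ± 1.44 in KO (log2 2.37, SE 0.131, edgeR adjusted p = 1.33e-15). It averaged 36.2 ± 2.50 in WT + AC and 9.66 ± 1.64 in WT (log2 1.91, SE 0.123, edgeR adjusted p = 4.88e-14). No library overlapped between the conditions, and relative to the median gene the log2 values were 2.05 in KO and 1.66 in WT. With the length offset they were 1.18 and 0.94. The difference between the genotypes, 0.46 (SE 0.181), was not called (edgeR adjusted p = 0.0941) except without KO library 3 (0.66, edgeR adjusted p = 0.00491). Ly6c2 averaged 2.61 ± 0.371 jointly scaled CPM in KO + AC and 0.469 ± 0.430 in KO, and 1.89 ± 0.273 in WT + AC and 0.367 ± 0.111 in WT. No library overlapped between the conditions in either genotype, with at most 14 counts in a library without apoptotic cells, and these values carry no test.

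Plac8, Ccr2 and S100a8 were lower with apoptotic cells in both genotypes. Plac8 averaged 0.956 ± 0.434 jointly scaled CPM in KO + AC and 4.28 ± 0.313 in KO (log2 -2.15, SE 0.243, edgeR adjusted p = 4.53e-09). It averaged 0.837 ± 0.213 in WT + AC and 1.85 ± 0.439 in WT (log2 -1.14, SE 0.285, edgeR adjusted p = 0.000617), or -0.74 with scaling to library totals (edgeR adjusted p = 0.0223). Ccr2 averaged 1.22 ± 0.206 in KO + AC and 3.73 ± 1.21 in KO (log2 -1.62, SE 0.244, edgeR adjusted p = 7.25e-07). It averaged 1.62 ± 0.368 in WT + AC and 5.80 ± 0.893 in WT (log2 -1.84, SE 0.212, edgeR adjusted p = 8.01e-09), and the genotypes differed by 0.21 (SE 0.338, edgeR adjusted p = 0.763). S100a8 averaged 12.7 ± 0.976 in KO + AC and 20.8 ± 3.38 in KO (log2 -0.71, SE 0.115, edgeR adjusted p = 2.3e-06). It averaged 10.5 ± 0.542 in WT + AC and 19.4 ± 0.747 in WT (log2 -0.88, SE 0.116, edgeR adjusted p = 8.47e-08). In jointly scaled CPM, every library with apoptotic cells lay below every library of the same genotype without them for these 3 genes. Groups that did not overlap, in either direction, were found for 86.7% of genes in KO and 86.6% in WT. The size of the S100a8 difference rested on the scaling, at -0.26 in KO and -0.48 in WT with library totals, and -2.76 and -3.03 with the length offset, all called.

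Adgre1 took opposite signs in the genotypes, but its direction in WT rested on the scaling. It averaged 627 ± 13.5 jointly scaled CPM in KO + AC and 519 ± 49.4 in KO (log2 0.27, SE 0.0826, edgeR adjusted p = 0.00364), a call lost without KO library 2 (0.16, edgeR adjusted p = 0.0852) and a value of 0.71 with scaling to library totals. It averaged 535 ± 3.32 in WT + AC and 605 ± 9.61 in WT (log2 -0.18, SE 0.0826, edgeR adjusted p = 0.0465). That call was lost without any 1 of the 6 libraries (edgeR adjusted p = 0.0555 to 0.0998) and with DESeq2 size factors (-0.07, edgeR adjusted p = 0.437). The sign was positive with the length offset (0.06, edgeR adjusted p = 0.454) and with library totals, where Adgre1 was called higher (0.23, edgeR adjusted p = 0.0175). Relative to the median gene Adgre1 lay at -0.05 in KO and -0.43 in WT with TMM, DESeq2 size factors and library totals, and at 0.57 and 0.10 with the length offset.

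Ly6i and Adgre4, chosen on their genotype differences, are given as values only. Ly6i was higher with apoptotic cells by log2 3.12 in KO and 1.27 in WT, or by 2.23 and 0.35 with the length offset. Adgre4 averaged 4.02 ± 0.654 jointly scaled CPM in KO + AC and 0.484 ± 0.232 in KO (log2 3.05), and 2.32 ± 0.209 in WT + AC and 1.92 ± 0.568 in WT (log2 0.28). Within KO + AC its mean per kilobase was above those of Ly6c2, Plac8, S100a9 and Ccr2, whereas within KO its range overlapped those of Ly6c2 and Ly6i at the low end.

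The genes most alike each member across the 12 libraries were taken after centring each table on its own mean, among 10121 to 10122 genes with at least 2 CPM on average in each table. These correlations are descriptions over libraries that share depth and table. Adgre1 was most like Fpr2 (r = 0.989), a formyl peptide receptor, then Arih2 (0.951) and Osbpl3 (0.941). Adgre4 was most like Rap1b (0.978), Bst1 (0.971) and Cd86 (0.961), and Vcan like Pip4k2a (0.981), Cul5 (0.979) and Ipo7 (0.978). S100a8 was most like the class Ib gene H2-M3 (0.929), the serum amyloid gene Saa3 (0.924) and Cd37 (0.916). Ly6c2 was most like Tmem179b (0.931), Rbm3 (0.925) and Fam174a (0.923), and Ccr2 resembled Nlk (0.909) and Kif20b (0.904). Ly6i was most like Trim12a (0.903), Lamtor3 (0.896) and Fas (0.896), and Plac8 like Pdk2 (0.895), Pgm1 (0.892) and Nuak2 (0.891). S100a9, with single counts, reached 0.774 with Ttc21b, 0.721 with Zswim3 and 0.719 with Armc10.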

How the data were processed

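Gene expression was measured by RNA sequencing in 12 libraries, deposited as 2 tables of 6 libraries. The values are raw read counts per gene symbol, as deposited. The authors' pipeline included fastp, HISAT2 2.0.5 and DESeq2 1.20.0 on the mm10 build, per the submitters' processing notes. Which counter, which annotation and which strand mode they used was not given in the sources used here. Groups came from the sample labels. The depth of 17000976 to 18770757 counts per library limits scarce genes, where a few counts set a value.

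Each table was fitted on its own with edgeR 4.0.16 in R 4.3.3 (filterByExpr with a minimum count of 10, TMM scaling, robust quasi-likelihood test, Benjamini-Hochberg adjustment over all genes tested, threshold 0.05). Comparisons with against without apoptotic cells, and the difference between genotype effects, used a joint fit of all 12 libraries on the shared symbols. CPM used TMM within each table unless said to be joint. The analysis was tested on simulated data. Alternatives were DESeq2 1.42.0, its size factors, no filter, the replicate number as a block, a lowess offset on exonic length (span 0.3), joint or smaller fits, libraries left out, and, chosen after seeing the data, library totals without TMM.

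The 9 genes and the 14 lists around them (152 entries) were chosen with earlier results of these data known. Named genes are all 9, Kif13b, and per list the 2 genes with the smallest p in each genotype comparison. List genes outside this rule are said to be named after their values were seen. Likeness was the Pearson correlation of log2 CPM (prior count 2) with each table centred, and the 3 highest were named. A few genes that these rules name are not reported here. Ly6i and Adgre4 had no test. Positions and lengths came from GENCODE vM21 (GRCm38), and promoters from RefSeq (GRCm38.p6). Labels shared replicate numbers, but same-numbered libraries did not deviate together, so they were not paired.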

Additional observations from a re-analysis of the deposited data

Results flagged for a closer look

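The genotype effect on Adgre1 differed between the libraries with and without apoptotic cells. The difference was log2 0.45 (0.21 with apoptotic cells against -0.22 without; edgeR adjusted p = 0.012 in the joint fit). The call was lost without KO library 2 (0.33, edgeR adjusted p = 0.0706), and the adjusted p ran from 0.000304 to 0.0706 over the alternatives.

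For Adgre4, every KO + AC library lay above every WT + AC library and every KO library below every WT library. The difference between the effects was log2 2.77. It was not tested, because the gene was chosen for these effects.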

How the results depend on the processing

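Without apoptotic cells 2045 genes and 3 member genes were called between the genotypes. The gene count was 3999 in a joint fit of 12 libraries, 95 without KO libraries 1 and 2, and 312 to 4166 when any 1 library was left out. The member count was 1 with the length offset, 0 without KO libraries 1 and 2, and 1 to 4 with 1 library left out. Leaving out KO libraries 1 and 2 leaves 1 KO library without apoptotic cells, assumed to vary like the other groups, so fewer calls are partly set by the design. With apoptotic cells 1866 genes and 1 member gene were called. DESeq2 called 1239 genes (895 higher, 344 lower), the joint fit 157, and fits without 1 library 1192 to 2142. The member count was 2 with DESeq2 size factors, 2 with the length offset and 0 in the joint fit. The difference between genotype effects was called for 2132 genes, 1043 without KO libraries 1 and 2 and 1129 to 4330 without 1 library, and for 1 member gene, 0 to 2 without 1 library. The log2 value of S100a8 without apoptotic cells (0.10) was -0.18 with the length offset, -0.014 with library totals, -0.14 without KO libraries 1 and 2, and -0.028 to 0.17 without 1 library. Plac8 with apoptotic cells (0.17) was -0.26 to 0.38 without 1 library. The effect of apoptotic cells on Adgre1 in WT (-0.18) was 0.063 with the length offset and 0.23 with library totals. The difference for Ccr2 (0.21) was -0.24 without KO libraries 1 and 2, and that for Ly6c2 (0.15) was -0.33 to 1.13 without 1 library. The cause of these changes was not tested. Of the alternative values of single member genes, 499 kept their direction and side of the threshold (or moved by less than 1 SD), 26 lost and 5 gained a call, 11 changed sign, and 11 of genes with no test moved by more than 1 SD. With the replicate number as a block, counts of genes were 2496, 1649, 14453, 14246 and 2174 in the genotype comparisons without and with apoptotic cells, apoptotic cells against none in KO and in WT, and the difference, and those of member genes 3, 1, 6, 5 and 1 (Ly6c2 counted among the 6 and the 5); the call lost was Adgre1 in WT (-0.18, edgeR adjusted p = 0.0569). Same-numbered libraries correlated at -0.20 to 0.11 without and -0.08 to 0.02 with apoptotic cells. DESeq2 gave no adjusted p with apoptotic cells for Ly6c2, Plac8 and Ccr2, and the fit of 6 compared libraries could not give the difference between effects. A few counts per library limit S100a9, and Ly6c2, Ly6i and Adgre4 without apoptotic cells.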
